A study of Mus musculus with 11 samples.

Results

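The 35 genes of glucose breakdown and of the response to low oxygen were followed in cells selected from mouse liver at the end of a toxic diet and after recovery from it. They were taken by exact gene name from the 43346 genes of the deposited expression table, and 33 of them were among the 15264 genes with enough signal to test. They were a list drawn up from known function: 3 sugar and lactate carriers, 10 genes for the preparatory steps of glycolysis and the branch to glycogen, 8 for the later steps and lactate dehydrogenase, 4 regulators of flux, 4 oxygen-sensing genes and 6 genes known to respond to hypoxia. All animals were male wildtype C57BL/6 mice, 14 to 16 weeks old. The Control group (4 libraries) ate chow, the DDC group (4 libraries) ate a diet with DDC, a porphyrin-disturbing compound that injures bile ducts, for 10 days, and the R15 group (3 libraries) ate that diet for 10 days and then chow for 15 days. Livers were dissociated, cells carrying EpCAM, a surface protein of bile duct epithelium, were drawn out with magnetic beads over 2 successive columns, and their polyadenylated RNA was sequenced. The labels call the cells cholangiocytes, the epithelial cells that line bile ducts.

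Glycolysis splits glucose into pyruvate, spending ATP in its first steps and earning it back in its later ones, and lactate dehydrogenase can turn the pyruvate into lactate. Oxygen is sensed by prolyl hydroxylases of the Egln family, which mark the HIF alpha proteins Hif1a and Epas1 for destruction while oxygen is present. When oxygen falls, HIF accumulates, and glucose carriers, several glycolytic enzymes and genes such as Bnip3, Ndrg1 and Car9 are among its known targets. HIF activity is set largely by the stability of the protein, which an RNA level does not measure.

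Values are FPKM, reads divided by gene length and by the depth of the library, over 49339240 to 72929107 reads per library. The 8 cholangiocyte markers on the list used here were present in each of the 11 libraries, from Krt7 (lowest 30.2 FPKM) and Epcam (lowest 259 FPKM) to Spp1 (lowest 6491 FPKM), with Cftr the scarcest (lowest 7.89 FPKM). Transcripts of other cells were present too: summed over 12 macrophage markers the level was 129 to 153 FPKM in Control, 1362 to 2445 in DDC and 143, 741 and 173 in R15 1, R15 2 and R15 3. Pancreatic acinar markers, summed over 12 genes, stood at 7550, 2006 and 889 FPKM in Control 1, Control 2 and Control 3, 984 in DDC 1 and 1233 in R15 3, against at most 11.5 in the others, and gastric mucous markers stood at 11250 FPKM in Control 3 against at most 161 elsewhere. No marker of any cell type list was at 0 in all libraries. The numbered libraries are separate replicates in the labels, which do not state outright that each came from 1 mouse, so p-values measure the spread between these libraries.

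At the end of the diet the set divided. In DDC against Control, 10 of the 33 tested members were higher and 12 were lower. The later steps of glycolysis were mostly higher, with Gapdh at 154 ± 8.51 FPKM (SD, n = 4) against 88.3 ± 9.201 in Control, while 4 of the 6 hypoxia-responsive genes were lower, with Ndrg1 at 9.77 ± 0.747 FPKM against 27.2 ± 4.39. Hk2, a hexokinase that commits glucose to the cell, had the largest rise and Ndrg1 the largest fall. The test was limma on log2(FPKM + 1), a scale that understates changes of genes near or under 1 FPKM, with p-values adjusted by the Benjamini-Hochberg method over all 15264 genes and a threshold of 0.05. In the same fit 65.4% of all tested genes were called, 33.5% higher and 31.9% lower, so the members' share of 66.7% was near the background and is no result about the list. With a change of at least 1 log2 unit as well, 1 member was higher and 2 were lower, where 7.87% of all genes were higher and 3.93% lower by that rule. The libraries of the groups did not overlap for 8 tested members that were higher and 12 that were lower. Of all tested genes the shares were 31.5% and 29.8%, or 61.3% together. The members' median change was -0.04 on the log2 scale beside 0.003 over all genes.

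**Figure D1:**
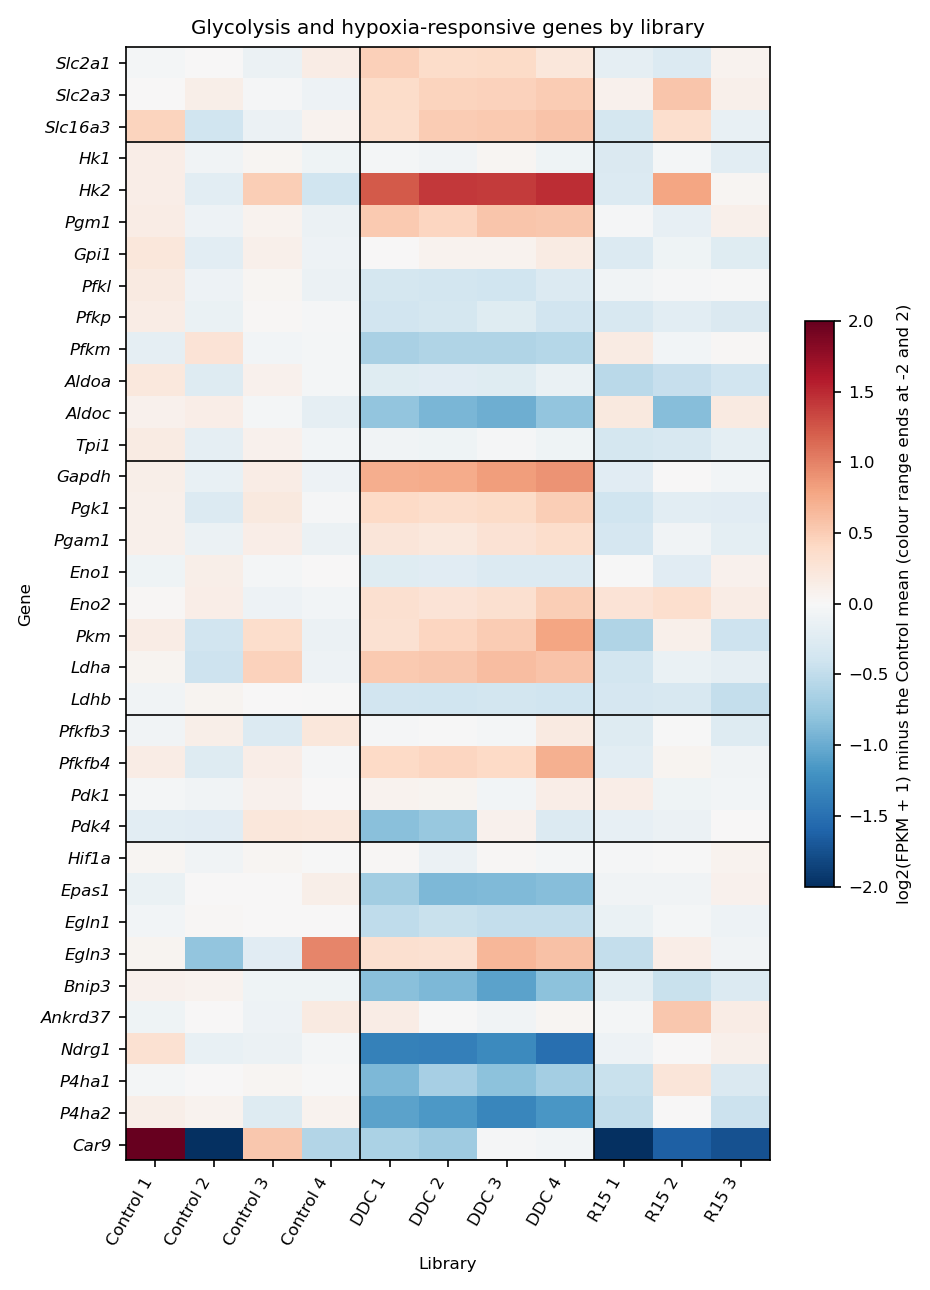
Colour shows log2(FPKM + 1) of each of the 35 genes (rows, in order of role) in each of the 11 libraries (columns), minus that gene's mean over the 4 Control libraries, with the colour range ending at -2 and 2, which only Car9 reaches. The DDC columns are red for Hk2 and Gapdh and blue for Ndrg1, P4ha2 and Epas1, and the R15 columns return toward the Control colours for those genes.

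The map of member levels by library also shows R15 2 apart from R15 1 and R15 3, nearer to the DDC columns for Aldoc, Slc16a3 and Pkm.

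The comparison was repeated without the libraries with pancreatic transcripts. Without Control 1, Control 2, Control 3, DDC 1 and R15 3 only 1 Control library is left. The spread within Control then cannot be measured, so only sizes of change are given. No member that was called with all libraries changed sign. The change of Slc2a1 in DDC against Control went from 0.36 to 0.18. Those of Slc16a3, Pkm, Pfkfb4, Aldoc, Eno1 and P4ha1 ranged from -0.72 for Aldoc to 0.69 for Pkm, near or above their size with all libraries. Without Control 1 and Control 3 alone, 11 members were higher and 12 lower in DDC, the addition being Gpi1 (0.24, adjusted p = 0.014 by limma). In that fit 4944 of all 15264 tested genes were higher and 4850 lower.

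The promoters of 2 of the genes that rose most and 2 of those that fell most are shown because the genes moved in opposite directions under the same diet. A promoter here is the stretch from 250 bases before to 50 bases after a transcription start in RefSeq, on GRCm38.p6, the assembly also called mm10. Capitals mark ACGTG and GCGTG, the forms of the core of the HIF-binding element, and CCAAT, the motif bound by NF-Y, the factor that the series is about, each on either strand, where a match on the opposite strand prints as its reverse complement. All 4 lie at the 5′ end of their genes, and the last 50 bases of each are the start of the first exon in RefSeq. The windows of Gapdh and P4ha2 lie inside the gene models used for counting, which begin further upstream.

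Hk2, chr6:82774405-82774704, minus strand: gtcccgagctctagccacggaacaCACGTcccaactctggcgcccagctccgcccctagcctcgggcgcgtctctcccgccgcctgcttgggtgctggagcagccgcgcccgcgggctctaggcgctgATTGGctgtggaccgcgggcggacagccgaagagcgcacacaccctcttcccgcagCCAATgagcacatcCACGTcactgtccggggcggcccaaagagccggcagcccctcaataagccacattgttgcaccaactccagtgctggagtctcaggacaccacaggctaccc

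Gapdh, chr6:125165724-125166023, minus strand: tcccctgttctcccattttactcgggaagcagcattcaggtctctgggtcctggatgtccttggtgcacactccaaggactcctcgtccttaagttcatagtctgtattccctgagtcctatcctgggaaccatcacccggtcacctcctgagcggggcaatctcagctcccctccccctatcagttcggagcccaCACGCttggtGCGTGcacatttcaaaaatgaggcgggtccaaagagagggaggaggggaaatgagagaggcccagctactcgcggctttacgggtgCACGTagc

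P4ha2, chr11:54100674-54100973, plus strand: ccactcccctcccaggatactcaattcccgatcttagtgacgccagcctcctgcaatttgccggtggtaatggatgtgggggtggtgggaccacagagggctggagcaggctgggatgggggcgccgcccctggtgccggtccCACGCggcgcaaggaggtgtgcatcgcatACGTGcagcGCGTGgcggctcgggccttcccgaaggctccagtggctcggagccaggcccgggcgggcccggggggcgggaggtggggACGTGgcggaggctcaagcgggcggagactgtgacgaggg

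Bnip3, chr7:138909457-138909756, minus strand: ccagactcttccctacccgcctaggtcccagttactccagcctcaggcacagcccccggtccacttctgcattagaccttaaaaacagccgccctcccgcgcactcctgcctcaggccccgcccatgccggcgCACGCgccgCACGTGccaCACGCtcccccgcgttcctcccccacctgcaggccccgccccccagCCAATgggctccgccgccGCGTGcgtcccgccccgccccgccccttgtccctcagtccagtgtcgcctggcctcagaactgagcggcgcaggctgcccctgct

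The Hk2 promoter held 2 matches to ACGTG and 2 to CCAAT. Gapdh had 1 match to ACGTG and 2 to GCGTG, P4ha2 had 2 of each, and Bnip3 had 3 to GCGTG, 1 to CCAAT and 1 CACGTG, a palindrome that reads as ACGTG on both strands. So the 2 genes that rose and the 2 that fell all held ACGTG. RefSeq entries were found for 32 of the 35 members, all but Slc2a3, Epas1 and Ndrg1. ACGTG occurred in a promoter of 22 of the 32 (68.8%), beside 28.5% of the 10440 tested genes with an entry and 19.6% of all 32851 promoters. For GCGTG the shares were 62.5% of members, 54.5% of tested genes and 32.4% of all promoters. CCAAT was found in 46.9% of members, 42.4% of tested genes and 37.4% of all promoters. Several members had more than 1 promoter entry and were counted if any of them matched, while the shares of all promoters count single entries. The members were listed for known function, with genes known to respond to hypoxia among them, so their ACGTG share is no independent result. A match describes letters, not binding.

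The carriers for glucose and lactate that could be tested were both higher in DDC. Slc2a1, the main glucose carrier of most cells (GLUT1), was at 35.2, 36.2, 33.3 and 40.1 FPKM in Control 1 to Control 4, 50.6, 46.8, 47.6 and 42.5 in DDC 1 to DDC 4 and 31.9, 29.7 and 38.04 in R15 1 to R15 3. Each DDC library lay above each library of the other groups, and the change from Control was 0.36 ± 0.08 (SE) on the log2 scale (limma, adjusted p = 0.0033). Gene models on the opposite strand overlap Slc2a1 at up to 4.09 FPKM, and the sources used here do not say if counting was by strand. Slc16a3, which exports lactate (MCT4), was low at 1.58, 0.446, 0.747 and 1.01 FPKM in Control and 1.42, 1.701, 1.73 and 1.84 in DDC, so that Control 1 fell among the DDC values. Its change of 0.49 ± 0.19 passed narrowly (limma, adjusted p = 0.041) and was lost on rescaling each library to one total FPKM (adjusted p = 0.057). It was kept in 3 of the 11 fits that each left out 1 library: without Control 2, 3 or 4, any of the 4 DDC libraries or R15 3 the adjusted p was between 0.051 and 0.11. Slc2a3, the high-affinity glucose carrier GLUT3, was under the filter of 1 FPKM in 3 libraries, at 0.187 to 0.3801 FPKM in Control, 0.636 to 0.819 in DDC and 0.348 to 0.873 in R15. The DDC values of Slc2a3 lay above those of Control, and in a fit without the filter its change was 0.44 ± 0.10 (SE; limma, adjusted p = 0.0057).

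Of the 10 genes of the preparatory steps, 2 were higher, 4 were lower and 4 did not pass in DDC against Control. Hk2 was at 1.28, 0.789, 1.93 and 0.574 FPKM in Control 1 to Control 4, 3.86, 4.57, 4.495 and 4.82 in DDC 1 to DDC 4 and 0.725, 2.59 and 1.14 in R15 1 to R15 3. Every DDC library lay above every Control and R15 library, and R15 2 was the highest outside DDC. The change from Control to DDC was 1.38 ± 0.24 (SE; limma, adjusted p = 0.00052), and it was 2.08 in a fit of the recovered reads with voom, which adds far less to low values. The other hexokinase on the list, Hk1, the housekeeping form of many tissues, was at 10.9 to 12.9 FPKM in Control and 11.1 to 12.1 in DDC, with a 95% interval of -0.18 to 0.11 for its change. Pgm1, which interconverts glucose 1-phosphate and glucose 6-phosphate and so links glycolysis to glycogen, rose from 16.2 ± 1.58 to 23.5 ± 0.938 FPKM (SD, n = 4 each), a change of 0.51 ± 0.07 (limma, adjusted p = 0.00015). The gene listed under that name is ENSMUSG00000025791 on chromosome 4.

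All 3 subunits of phosphofructokinase, the enzyme of the committed step of glycolysis, were lower in DDC. Pfkm, the muscle-type subunit, had 10.8, 15.1, 11.8 and 11.9 FPKM in Control and 7.48, 7.81, 7.797 and 7.92 in DDC, without overlap. Its change was -0.60 ± 0.09 (SE; limma, adjusted p = 0.00016). Pfkl, the liver-type subunit, changed by -0.34 ± 0.06 (adjusted p = 0.00084) and Pfkp, the platelet-type subunit, by -0.34 ± 0.06 (adjusted p = 0.00067), both by limma and both with every DDC library below every Control library. Reads of Pfkm and Pfkp share ground with the protein-coding neighbours Senp1 and Pitrm1, which overlap them. Aldoc, the aldolase best known from brain, fell from 23.2 ± 2.299 to 12.2 ± 0.865 FPKM, a change of -0.87 ± 0.20 on the log2 scale (limma, adjusted p = 0.0035). Aldoa, the general aldolase and the most abundant member per length, was at 277, 202, 255 and 235 FPKM in Control and 203.5, 205, 204 and 219.6 in DDC. Those groups overlap through Control 2, and the change of -0.21 ± 0.09 did not pass (limma, adjusted p = 0.055), though it did without Control 2 (-0.29, adjusted p = 0.0038) and on rescaling to one total (-0.30, adjusted p = 0.0059). Gpi1, which turns glucose 6-phosphate into fructose 6-phosphate, was at 54.7 to 74.1 and 63.9 to 71.3 FPKM, and Tpi1, which interconverts the triose phosphates, at 95.7 to 122 and 102 to 107, and neither passed. On rescaling to one total Tpi1 did (-0.16; limma, adjusted p = 0.046).

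In the later steps, all 7 tested genes passed in DDC against Control, 5 higher and 2 lower. Gapdh, which makes the first high-energy intermediate and the NADH of glycolysis, was at 95.1, 79.1, 97.3 and 81.9 FPKM in Control 1 to Control 4, 145.5, 148, 157 and 164 in DDC 1 to DDC 4 and 75.2, 88.8 and 84.7 in R15 1 to R15 3. The DDC libraries stood apart from all others, with a change from Control of 0.80 ± 0.08 (SE; limma, adjusted p = 1.5e-05). Pgk1, the first ATP-producing enzyme of the path, was at 29.4, 22.4, 31.6 and 26.9 FPKM in Control and 36.2, 35.2, 36.04 and 38.8 in DDC. It rose by 0.41 ± 0.09 (limma, adjusted p = 0.003), and every DDC library was above every Control library. Pgam1, the phosphoglycerate mutase, rose by 0.28 ± 0.08 (limma, adjusted p = 0.0091). A near-identical pseudogene copy, Pgam1-ps2, was listed at 4.95 FPKM in Control and 6.22 in DDC, so the split of reads between the 2 is uncertain. Eno1, the general enolase, went the other way, at 115, 132, 118 and 122 FPKM in Control and 102, 104, 100.1 and 100 in DDC, a change of -0.26 ± 0.07 (limma, adjusted p = 0.0067). The ranges of Eno1 did not overlap, and its copy Eno1b was also lower in DDC, at 5.35 against 6.86 FPKM. Eno2, the neuronal enolase, was under the filter, at 0.1597 to 0.364 FPKM in Control and 0.504 to 0.751 in DDC, and without the filter its change was 0.35 ± 0.07 (SE; limma, adjusted p = 0.0021).

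Pkm, the pyruvate kinase of non-hepatocyte tissues, was at 83.7, 57.4, 96.6 and 69.7 FPKM in Control 1 to Control 4, 93.1, 101, 108 and 130.5 in DDC 1 to DDC 4 and 49.6, 81.2 and 56.1 in R15 1 to R15 3. Control 3 lay among the DDC values, and the change of 0.50 ± 0.19 (limma, adjusted p = 0.037) did not pass without Control 2, Control 4, DDC 2, DDC 3 or DDC 4 (adjusted p between 0.056 and 0.1) or after quantile normalization (0.062). Ldha, the lactate dehydrogenase subunit that favours lactate formation, was at 59.8, 42.6, 79.2 and 53.3 FPKM in Control, 83.2, 84.04, 88.01 and 85.3 in DDC and 44.1, 52.3 and 50.5 in R15. The DDC libraries were within a narrow band above all Control libraries, and the change was 0.56 ± 0.15 (SE; limma, adjusted p = 0.0072). Ldhb, the subunit that favours lactate use, fell in the same libraries, from 38.7, 42.5, 41.02 and 40.6 FPKM to 30.8, 30.7, 31.3 and 30.5, a change of -0.39 ± 0.04 (limma, adjusted p = 2.4e-05). Summed over the 17 enzyme genes from hexokinase to lactate dehydrogenase, the level was 831 to 1009 FPKM in Control, 948 to 1033 in DDC and 742 to 806 in R15, so Control and DDC overlapped in the sum.

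**Figure D2:**
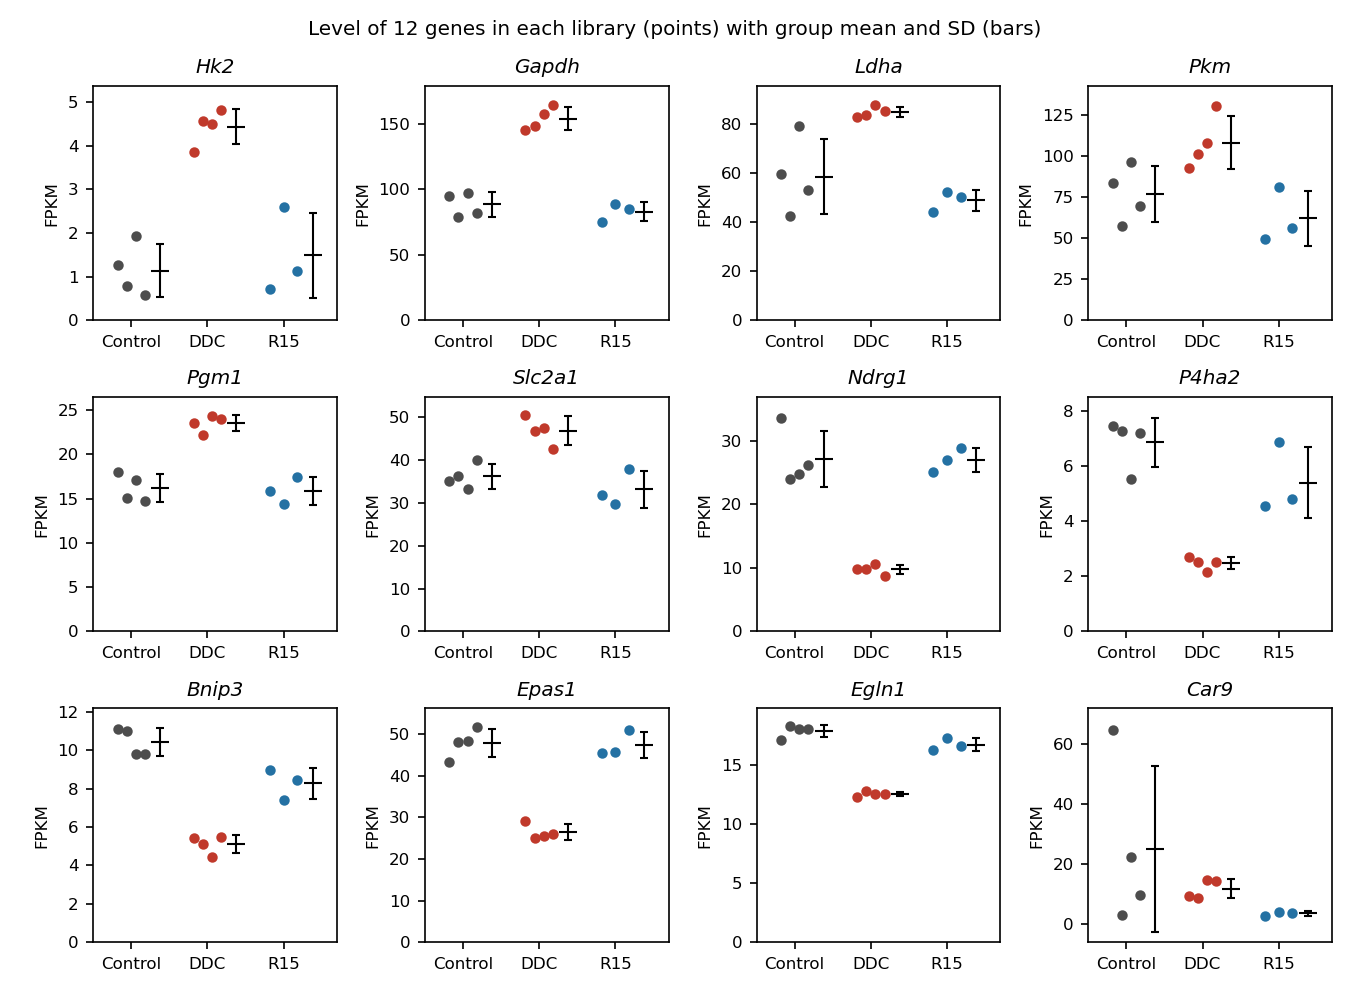
Each panel shows FPKM (y axis) of 1 gene in each library (points, in replicate order) of the Control, DDC and R15 groups, with the group mean and SD as bars. Hk2 and Gapdh have DDC points above all others, Ndrg1, P4ha2, Bnip3, Epas1 and Egln1 have DDC points below all others, and Car9 is spread widest in Control, where its SD exceeds its mean.

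The plot of single library values sets 6 genes that rose beside 5 that fell and Car9, and shows that the spread within DDC was small for most of them. The 4 regulators of flux were less uniform. Pfkfb4, which makes fructose 2,6-bisphosphate, the activator of phosphofructokinase, was at 5.17, 3.66, 5.08 and 4.44 FPKM in Control and 6.28, 6.51, 6.31 and 8.09 in DDC, where DDC 4 was highest. It rose by 0.48 ± 0.11 (limma, adjusted p = 0.0026). Its relative Pfkfb3, a known HIF target, was at 10.5 to 15.1 FPKM in Control and 12.5 to 14.7 in DDC, with an interval for the change of -0.21 to 0.27. Pdk1, the kinase that shuts pyruvate out of mitochondria and also a known HIF target, had an interval of -0.09 to 0.19 around 0.05. Pdk4, the kinase better known from fasting, was at 1.54, 1.52, 2.44 and 2.43 FPKM in Control and 0.652, 0.751, 2.12 and 1.45 in DDC. DDC 3 lay within the Control values, and the change of -0.45 ± 0.20 did not pass (limma, adjusted p = 0.074) but did without DDC 3 (-0.62, adjusted p = 0.011) and with voom (-0.86, adjusted p = 0.042).

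Of the 4 oxygen-sensing genes, 2 were lower in DDC. Epas1, the HIF alpha protein also called HIF2A, was at 43.4, 48.1, 48.2 and 51.7 FPKM in Control 1 to Control 4, 29.2, 25.01, 25.5 and 26.1 in DDC 1 to DDC 4 and 45.5, 45.5 and 50.9 in R15 1 to R15 3. The DDC libraries were below all the others, with a change from Control of -0.83 ± 0.07 (SE; limma, adjusted p = 3e-06). Epas1 is also abundant in endothelium, and the summed level of 10 endothelial markers was 78.5 to 349 FPKM in Control, 12.7 to 39.8 in DDC and 52.6 to 180 in R15, with all 10 lower in DDC. In bulk samples fewer cells of a type and less RNA per cell cannot in general be told apart. Over the Control and R15 libraries, where the endothelial sum ran from 52.6 to 349 FPKM, Epas1 stayed at 43.4 to 51.7. R15 1, at the low end with 52.6, had 45.5 FPKM of Epas1, and DDC 1, with 39.8, had 29.2. Hif1a RNA, for the other HIF alpha protein, was at 18.6, 17.1, 18.4 and 17.9 FPKM in Control and 18.3, 16.4, 18.3 and 17.6 in DDC. The 95% interval of its change was -0.12 to 0.07 on the log2 scale. Egln1, the main oxygen-sensing prolyl hydroxylase (PHD2), was at 17.1, 18.3, 18.01 and 18.1 FPKM in Control and 12.3, 12.8, 12.5 and 12.5 in DDC, a change of -0.48 ± 0.03 (SE; limma, adjusted p = 1.3e-06) with the smallest SE of any called member. Egln3, a hydroxylase that is itself induced by HIF, was at 16.7, 8.86, 13.6 and 32.6 FPKM in Control and 20.4, 20.1, 26.1 and 24.8 in DDC. Control 4 was above every DDC library, and the change of 0.47 ± 0.31 did not pass (limma, adjusted p = 0.21), but it did without Control 4 (0.79, adjusted p = 0.009). Without the 5 libraries with pancreatic transcripts, where Control 4 is the one Control library, the sign turned (-0.46).

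Among the 6 hypoxia-responsive genes 0 were higher in DDC by limma and 4 were lower, and the counts were the same at an unadjusted p under 0.05 and with voom. Ndrg1, a stress-response gene that is widely used as a hypoxia marker, was at 33.6, 24.1, 24.8 and 26.2 FPKM in Control 1 to Control 4, 9.89, 9.78, 10.6 and 8.79 in DDC 1 to DDC 4 and 25.1, 27.01 and 28.8 in R15 1 to R15 3. No DDC library came near the other groups, and the change from Control was -1.38 ± 0.10 (SE; limma, adjusted p = 1.7e-06). P4ha2, a subunit of the enzyme that hydroxylates collagen prolines, was at 7.44, 7.25, 5.54 and 7.19 FPKM in Control, 2.703, 2.53, 2.16 and 2.499 in DDC and 4.54, 6.86 and 4.79 in R15. Control 3 was the lowest Control library and still above all of DDC, and the change was -1.17 ± 0.12 (limma, adjusted p = 1.7e-05). P4ha1, the other such subunit on the list, was at 8.42, 8.78, 8.93 and 8.61 FPKM in Control, 4.19, 5.09, 4.49 and 5.07 in DDC and 6.096, 10.5 and 6.95 in R15. Its change in DDC was -0.77 ± 0.13 (limma, adjusted p = 0.0004), and R15 2 was its highest library of all. Bnip3, which acts in the removal of mitochondria, was at 11.1, 11.01, 9.81 and 9.796 FPKM in Control, 5.41, 5.11, 4.43 and 5.48 in DDC and 8.96, 7.38 and 8.46 in R15. The 3 groups of Bnip3 did not overlap at all, and the DDC change was -0.91 ± 0.08 (limma, adjusted p = 4.5e-06).

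Car9, a carbonic anhydrase that is one of the most specific HIF1 targets and is also made by bile duct and stomach epithelium, was at 64.5, 3.01, 22.3 and 9.64 FPKM in Control 1 to Control 4, 9.25, 8.79, 14.7 and 14.3 in DDC 1 to DDC 4 and 2.75, 4.14 and 3.801 in R15 1 to R15 3. Control spanned a wide range, with Control 1 and Control 3 highest, the libraries in which the pancreatic and gastric marker sums respectively were highest. Control 2, with the next highest pancreatic sum (2006 FPKM), had the lowest Car9 of the Control libraries. R15 3 (1233 FPKM) and DDC 1 (984 FPKM) had Car9 within the range of the other libraries of their groups. The part of those cells in Car9 was not tested. The change of Car9 in DDC was -0.36 ± 0.68 (limma, adjusted p = 0.66), and it was 0.93 without Control 1 and Control 3 (adjusted p = 0.06). Ankrd37, a small ankyrin-repeat protein known as a HIF target, stayed near the filter at 0.813 to 1.198 FPKM in Control, 0.852 to 1.15 in DDC and 0.883 to 1.82 in R15, and overlaps 2 protein-coding neighbours.

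Other measures moved with the diet in the same libraries. Of 12 macrophage markers 9 were higher in DDC, and all 8 cell cycle genes on a separate list were higher, their sum going from 9.86 to 20.5 FPKM in Control to 113 to 122 in DDC and 10.8 to 18.3 in R15. Of 10 hepatocyte markers 4 were lower in DDC, 2 were higher and 4 did not pass. Their sum, most of it Alb (2385 to 3117 FPKM in Control), was 2947 to 3663 FPKM in Control, 1120 to 1645 in DDC and 1846 to 2525 in R15. Of 4 tested neutrophil markers 3 were higher in DDC, S100a8 from 0.684 to 23.7 FPKM, S100a9 from 0.817 to 22.95 and Csf3r from 0.519 to 7.36 (limma, adjusted p = 1.7e-06, 1.8e-06 and 4.2e-05). The fourth, Ltf, also made by epithelia, was at 6.21 to 104 FPKM in Control and 0.697 to 36.95 in DDC and did not pass (limma, adjusted p = 0.16). Of 10 stellate cell and fibroblast markers 3 could be tested, and they diverged. Rgs5, a gene known from pericytes, was at 27.3 to 57.6 FPKM in Control, 414.5 to 500.3 in DDC and 157 to 199.7 in R15. Reln fell from 1.398 to 0.433 FPKM in DDC (limma, adjusted p = 2.5e-05). Acta2, the third tested marker, was at 1.53 to 2.14 FPKM in Control and 2.40 to 5.73 in DDC, without overlap, but did not pass. The untested markers were each under 1 FPKM in every DDC library, with Pdgfrb at 0.0647 to 0.178, Des at 0.1325 to 0.252 and Col1a1 at 0.216 to 0.804. In Control, Col1a1 was lower, at 0.0185 to 0.147 FPKM, while Pdgfrb and Des overlapped their DDC values. Rgs5 had the largest change of the 3 tested markers. The part of these cells and of cell division in the members' changes was not tested.

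After 15 days back on chow, Ndrg1 was higher and Hk2 lower than at the end of the diet, each by more than 1 log2 unit. In R15 against DDC, 10 of the 33 tested members were higher and 13 were lower. Among all tested genes 62.2% were called, 33.4% higher and 28.8% lower, so the members' 69.7% was again near the background. By at least 1 log2 unit 1 member was higher and 1 lower, where 9.37% of all genes passed, 3.54% higher and 5.83% lower. The DDC libraries serve in both comparisons, so a member that was high in DDC is also likely to be lower in R15 against DDC, and each value is given for its own comparison. The groups did not overlap for 8 tested members that were higher and 15 that were lower in R15, against 35.6% and 31% of all tested genes, or 66.6% together. The members' median change was -0.14, and 0.04 over all genes. Rescaling every library to the same total FPKM moved the median of all genes to 0.14, and the split of called genes from 5099 higher and 4397 lower to 6172 higher and 3305 lower.

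The 2 testable carriers were lower in R15 than in DDC, with changes of -0.49 ± 0.09 (SE) for Slc2a1 and -0.55 ± 0.20 for Slc16a3 on the log2 scale (limma, adjusted p = 0.001 and 0.037). The call of Slc16a3 was lost without DDC 2, DDC 3, DDC 4, R15 1 or R15 3 (adjusted p between 0.069 and 0.15) and on rescaling (0.051). Hk2 changed by -1.20 ± 0.26 (adjusted p = 0.0024), and among the later steps Gapdh changed by -0.89 ± 0.09 (adjusted p = 2.1e-05), Pkm by -0.81 ± 0.20 (adjusted p = 0.006), Ldha by -0.79 ± 0.16 (adjusted p = 0.0018), Pgk1 by -0.68 ± 0.10 (adjusted p = 0.00024) and Pgam1 by -0.47 ± 0.08 (adjusted p = 0.00067), all by limma. For each of these genes every R15 library was below every DDC library. Pgm1 and Pfkfb4 were lower too, at -0.54 ± 0.08 and -0.56 ± 0.12 (limma, adjusted p = 0.00024 and 0.0019). Gpi1, Aldoa and Tpi1, which had not passed in DDC against Control, were lower in R15 than in DDC at -0.28 ± 0.10, -0.25 ± 0.09 and -0.22 ± 0.08 (limma, adjusted p = 0.028, 0.039 and 0.027). These 3 calls were narrow: Gpi1 was lost without DDC 2, DDC 3, DDC 4, R15 1 or R15 3, Tpi1 without DDC 1, DDC 3, R15 1 or R15 2, and Aldoa without Control 4, any DDC library, R15 1 or R15 2, with adjusted p between 0.051 and 0.13. All 3 were lost on rescaling to one total as well (limma, adjusted p = 0.087 for Gpi1, 0.18 for Aldoa and 0.19 for Tpi1).

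Ndrg1 led the genes that were higher in R15 than in DDC. Ndrg1 rose by 1.38 ± 0.11 (SE; limma, adjusted p = 5.9e-06), the largest rise among the members, to 26.98 ± 1.86 FPKM (SD, n = 3). P4ha2 rose by 0.86 ± 0.13, Epas1 by 0.82 ± 0.07, Pfkm by 0.65 ± 0.09, Bnip3 by 0.60 ± 0.08, P4ha1 by 0.60 ± 0.14, Egln1 by 0.39 ± 0.04 and Pfkl by 0.31 ± 0.07 (limma, adjusted p between 1.1e-05 and 0.0033), and each had every R15 library above every DDC library. Aldoc was at 26.5, 12.3 and 26.3 FPKM in R15 1 to R15 3, where R15 2 stayed within the DDC range of 11.2 to 12.97. Its change of 0.70 ± 0.22 (limma, adjusted p = 0.017) did not pass without R15 1 or R15 3 (adjusted p = 0.079 and 0.078). Eno1 was at 120.4, 103 and 129.5 FPKM in R15, with R15 2 again inside the DDC range, and its change of 0.20 ± 0.07 (limma, adjusted p = 0.032) was lost without DDC 1, DDC 3, DDC 4, R15 1 or R15 3 (adjusted p between 0.056 and 0.14). Pfkp and Ldhb did not pass, with intervals for the change of -0.08 to 0.22 and -0.09 to 0.12, although Pfkp passed on rescaling to one total (0.18; limma, adjusted p = 0.024). Egln3 and Car9 had all R15 libraries below all DDC libraries but did not pass, at -0.61 ± 0.34 and -1.46 ± 0.74 (limma, adjusted p = 0.14 and 0.11). Their SE rests on a spread shared with Control: Car9 passed without Control 1 (limma, adjusted p = 0.028), without Control 2 (0.031) and with only the 2 groups in the fit (0.00088), and Egln3 passed without Control 4 (0.03). Hk1 was at -0.14 ± 0.07 and passed without R15 2 (-0.21; limma, adjusted p = 0.021), and Pdk4 at 0.35 ± 0.22 passed without DDC 3 (0.53; limma, adjusted p = 0.033). Hif1a at 0.04 ± 0.05 passed on rescaling (0.15; limma, adjusted p = 0.026). For Pfkfb3, Pdk1 and Ankrd37 the intervals were -0.46 to 0.06, -0.20 to 0.10 and -0.11 to 0.48.

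**Figure D3:**
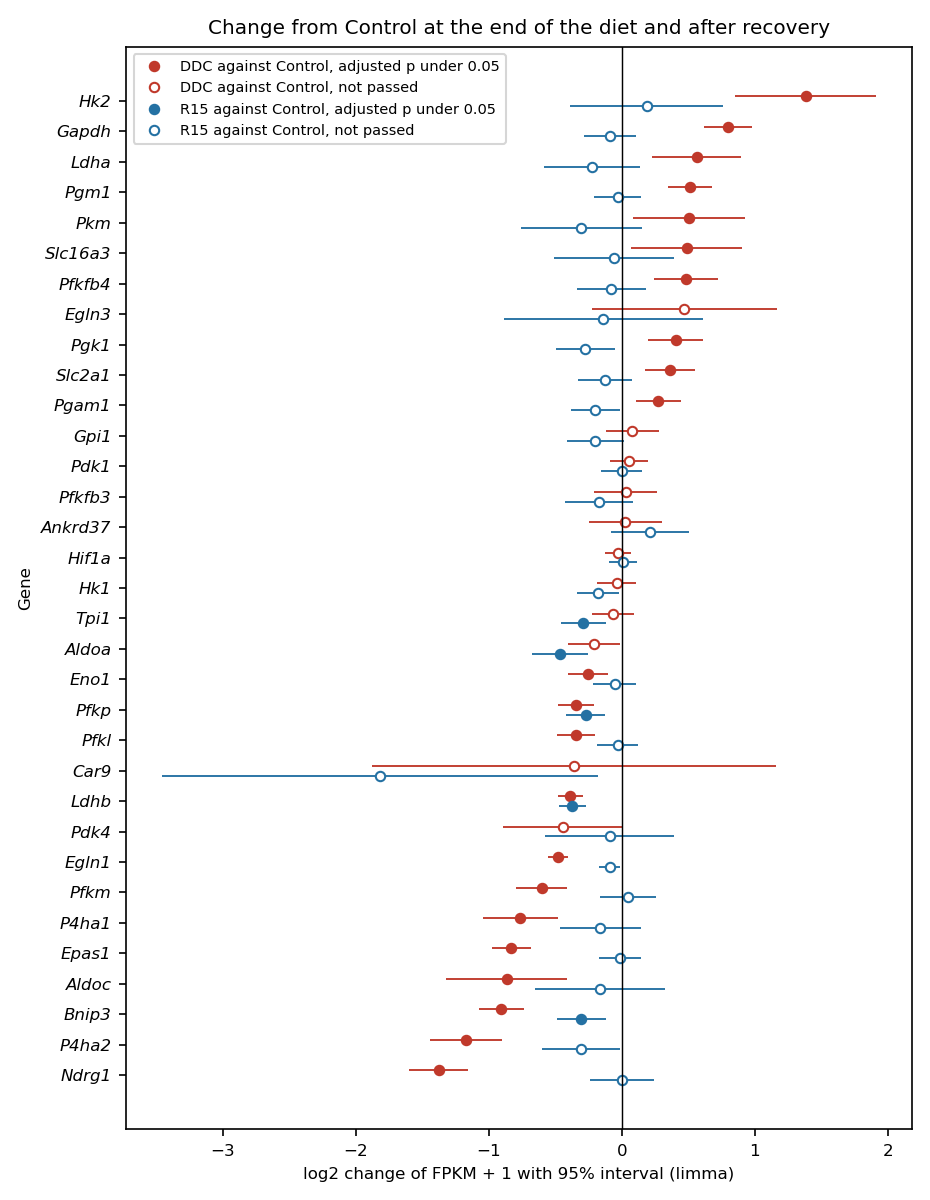
Log2 change of FPKM + 1 from Control (x axis) with its 95% limma interval for each of the 33 tested genes (y axis), for DDC (red) and R15 (blue), with filled points where the adjusted p was under 0.05. The red points run from -1.38 for Ndrg1 to 1.38 for Hk2, and the blue points run from -0.46 for Aldoa to 0.21 for Ankrd37 except for Car9 at -1.82, whose interval is the widest.

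Against Control, R15 was close for most members. By limma 0 of the 33 tested members were higher and 5 were lower, a share of 15.2%. Of all tested genes 9.58% were called, 6.87% higher and 2.72% lower. At an unadjusted p under 0.05, 0 members were higher and 11 lower, where 4393 of all 15264 tested genes had such a p in either direction. With voom 0 members were higher and 5 lower, where 1153 of all tested genes were higher and 413 lower. Groups did not overlap for 5 tested members, all lower, beside 21.3% of all tested genes, 15% higher and 6.3% lower. Eno2, which was under the filter, was at 0.382 to 0.572 FPKM in R15, above its Control range of 0.1597 to 0.364. Without the filter its change was 0.25 ± 0.07 (SE; limma, adjusted p = 0.089). A change of at least 1 log2 unit was called for 0 members and 0.924% of all genes. The all-gene split depended on scaling, with 1048 higher and 415 lower as deposited, 622 and 804 after median-of-ratios scaling and 594 and 468 after quantile normalization. Ldhb changed by -0.37 ± 0.05 (SE; limma, adjusted p = 0.0016), at 32.2, 32.5 and 29.03 FPKM in R15 1 to R15 3 against 38.7 to 42.5 in Control. All R15 libraries of Ldhb were below all Control libraries, and its call held in each of the 11 fits without 1 library. It was lost without the 5 libraries with pancreatic transcripts, but with 1 Control library left that fit cannot decide a call. Aldoa changed by -0.46 ± 0.09 (limma, adjusted p = 0.017), at 165, 174.5 and 185 FPKM, and was lost without R15 1 (0.065) or R15 2 (0.05 on rounding, just over the threshold). Pfkp changed by -0.27 ± 0.07, Tpi1 by -0.29 ± 0.08 and Bnip3 by -0.30 ± 0.08 (limma, adjusted p = 0.033, 0.042 and 0.046). These 3 were narrow: Pfkp passed only without Control 2, DDC 3 or DDC 4, Tpi1 only without Control 2 and Bnip3 only without DDC 3, and otherwise the adjusted p was between 0.051 and 0.14. With voom all 5 passed, and on rescaling to one total all but Bnip3 (adjusted p = 0.11). Without Control 1 and Control 3, Ldhb was the only one that passed.

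Of the 7 members with the largest diet changes, 5 had intervals that held 0 in R15 against Control: -0.39 to 0.76 for Hk2, -0.24 to 0.24 for Ndrg1, -0.65 to 0.33 for Aldoc, -0.17 to 0.14 for Epas1 and -0.28 to 0.10 for Gapdh on the log2 scale. The other two were below 0, at -0.60 to -0.02 for P4ha2 and -0.49 to -0.12 for Bnip3, of which only Bnip3 passed after adjustment. The plot of changes from Control sets these beside the DDC values. P4ha2 was at -0.31 ± 0.13 (limma, adjusted p = 0.15) and P4ha1 at -0.16 ± 0.14 (adjusted p = 0.45), and both passed without R15 2 (-0.47, adjusted p = 0.043, and -0.37, adjusted p = 0.033). Pgk1 at -0.27 ± 0.10 passed without Control 2 (-0.37; limma, adjusted p = 0.013), and Car9 at -1.82 ± 0.74 also passed without Control 2 (-2.48, adjusted p = 0.02). The R15 libraries were not alike: R15 2, the library with the macrophage sum of 741 FPKM, was the highest of the 3 for 21 of the 35 members, and R15 1 was the lowest for 25. Total FPKM over all genes had the same order, at 322130 in R15 1, 348313 in R15 2 and 332816 in R15 3. The places were not counted over all genes, and the part of these totals in them was not tested. In R15 2 Hk2 stood at 2.59 FPKM against 0.725 and 1.14, and Slc16a3 at 1.39 against 0.485 and 0.713. The part of macrophage RNA in those values was not tested.

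Isoenzyme use was described as each gene's share of the summed FPKM of its family, which is a share per length. Hkdc1, a hexokinase-like gene of epithelia that is not a member, had the largest share of the hexokinase sum, at 63.9 ± 3.38% in Control and 49.6 ± 1.83% in DDC (mean ± SD, n = 4). Hk2 made up 2.62, 2.1, 5.21 and 1.56% in the Control libraries, 9.51, 11.6, 10.5 and 10.97% in DDC and 2.28, 6.88 and 3.599% in R15. Its share in every DDC library was above that of every other library, and Hk3, the hexokinase known from blood cells, stood beside it at 3.101 ± 1.98% in Control and 11.3 ± 2.84% in DDC. Hk3 stood at 11.4% in R15 2 against 1.65% and 2.37% in the other R15 libraries. Hk1 had a share of 29.6 ± 2.497% in Control and 27.5 ± 1.54% in DDC.

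Ldha made up 60.7, 50.1, 65.9 and 56.8% of the Ldha and Ldhb sum in Control 1 to Control 4, 72.95, 73.3, 73.7 and 73.7% in DDC 1 to DDC 4 and 57.8, 61.7 and 63.5% in R15 1 to R15 3. The DDC shares varied little and were above all Control shares. Hif1a made up 30.1, 26.3, 27.7 and 25.7% of the Hif1a and Epas1 sum in Control and 38.6, 39.7, 41.8 and 40.3% in DDC. In R15 it was 27.9, 28.3 and 27.1%. For Hk2, Ldha and Hif1a the DDC and Control shares did not overlap (2-sided exact permutation test, p = 0.029, the smallest that 4 against 4 allows), and none passed after adjustment over the 18 tests of shares (adjusted p = 0.094), a threshold out of reach for groups of this size. Among the phosphofructokinases the Pfkp share was 24.4 ± 1.56% in Control, 25.5 ± 1.38% in DDC and 20.9 ± 1.08% in R15. For R15 against DDC and against Control the exact permutation p of Pfkp was 0.057, the smallest that 3 against 4 allows, and the adjusted p was 0.094. The Egln3 share of the 3 prolyl hydroxylases spread from 16.1% to 42% in Control alone, with 36.6 ± 2.95% in DDC.

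**Figure D4:**
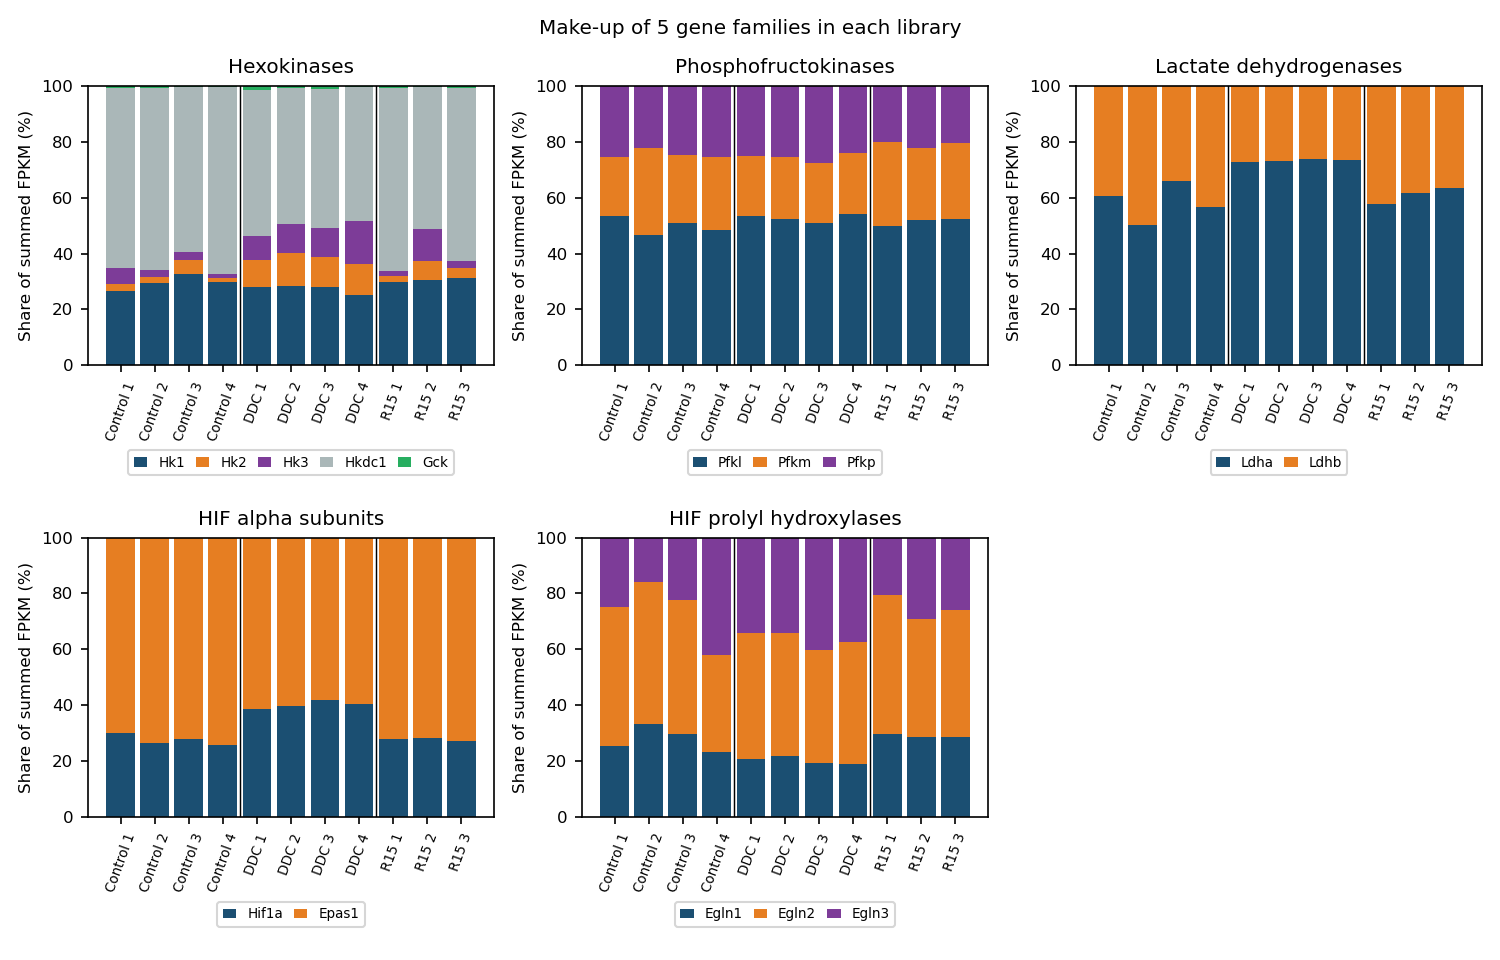
Each panel is 1 gene family, and each stacked bar is 1 of the 11 libraries (x axis), with the coloured segments giving each gene's share (y axis, percent of the family's summed FPKM) and black lines parting the 3 groups. The Hk2, Ldha and Hif1a segments are larger in every DDC bar than in any Control or R15 bar, and the Egln3 segment varies most among the Control bars.

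The plot of isoenzyme shares shows the narrow DDC groups for Ldha and Hif1a. Beyond the 35 members, the other genes of these pathways were read from longer lists. Of 18 tested other genes of glycolysis and glucose transport, 5 were higher and 8 lower in DDC against Control, with a median of -0.08. Slc2a2, the glucose carrier of hepatocytes (GLUT2), fell from 109 to 37.0 FPKM (-1.54 ± 0.14; limma, adjusted p = 7e-06) and Slc16a7, a monocarboxylate carrier, changed by -0.94 ± 0.07 (limma, adjusted p = 1.4e-06). Bsg, the partner protein that carries MCT4 to the membrane, went from 495 to 306 FPKM (limma, adjusted p = 1.6e-05). Of 12 genes for pyruvate entry into mitochondria, 4 were higher and 5 lower. The kinases of pyruvate dehydrogenase diverged there, with Pdk3 at 0.90 ± 0.07 and Pdk2 at -0.86 ± 0.07 (limma, adjusted p = 2.4e-06 and 2.5e-06).

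The pentose phosphate pathway, which draws off glucose 6-phosphate to make NADPH and ribose, had 5 of 7 genes higher and 1 lower in DDC, with a median of 0.58 beside 0.003 over all genes. Its summed level was 178 to 226 FPKM in Control, 298 to 330.5 in DDC and 168 to 187 in R15. G6pdx, its first enzyme, was at 29.1, 26.2, 29.4 and 27.3 FPKM in Control, 36.9, 38.8, 38.6 and 38.5 in DDC and 23.9, 24.7 and 25.7 in R15. All 4 DDC libraries were higher, and the change was 0.44 ± 0.04 (limma, adjusted p = 1.1e-05). Taldo1, the transaldolase of its non-oxidative arm, rose by 0.75 ± 0.08 (limma, adjusted p = 3e-05). Of 7 gluconeogenesis genes 2 were higher and 3 lower, among them G6pc, the glucose 6-phosphatase of liver, from 3.58 to 0.44 FPKM (-1.65 ± 0.13; limma, adjusted p = 2.4e-06). Of 10 genes of glycogen and fructose metabolism 2 were higher and 4 lower, with Akr1b3, aldose reductase, at 1.00 ± 0.14 (limma, adjusted p = 0.00011).

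Oxygen-related genes outside the 35 also split. Of 7 other oxygen-sensing genes 2 were higher and 4 lower in DDC, with Cited2, which competes with HIF for its coactivator, from 33.6 to 17.6 FPKM (-0.89 ± 0.11; limma, adjusted p = 6e-05) and Vhl, which marks HIF for destruction, at 0.28 ± 0.04 (limma, adjusted p = 9.7e-05). Of 22 other hypoxia-responsive genes 8 were higher and 9 lower, with a median of -0.14. Vegfa, the vessel growth factor, was at 148, 179, 134 and 181 FPKM in Control, 34.2, 34.6, 34.4 and 36.2 in DDC and 161, 128 and 144 in R15. The DDC libraries lay far below the rest, and the change was -2.16 ± 0.10 (SE; limma, adjusted p = 2.1e-07). Ddit4, an inhibitor of mTORC1 that hypoxia and other stresses induce, went the other way, from 28.2, 21.4, 28.2 and 37.4 FPKM in Control to 105, 96.7, 109 and 105 in DDC. It was back at 28.03, 30.1 and 33.3 FPKM in R15, and the DDC change was 1.84 ± 0.13 (limma, adjusted p = 1.8e-06).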

How the data were processed

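RNA was sequenced from EpCAM-selected liver cells in 4 Control, 4 DDC and 3 R15 libraries. Expression came as the authors' deposited FPKM values, 1 column per library, with the gene lengths used. The build was mm10, per the submitters' processing notes, and the aligner, counter and gene models are not named in the sources used here. Multiplying back by length (plus 1) and depth gave whole reads for 100% of values within 0.001, with 49339240 to 72929107 reads per library, and an FPKM between 0.9 and 1.1 rested on a median of 122.5 reads. Precision was thus limited mainly by the number of libraries.

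Genes with at least 1 FPKM in at least 3 libraries (15264) were tested as log2(FPKM + 1) with limma 3.58.1 (R 4.3.3) in 1 model of the 3 groups over all 11 libraries, with a mean-variance trend, 3 contrasts and Benjamini-Hochberg adjustment at 0.05. Isoenzyme shares were compared by 2-sided exact permutation tests (scipy 1.17.1), adjusted over all 18 tests run, and 1 of the families tested is not reported here. Named were all 35 members, the 3 genes of each further list with the smallest p in DDC against Control, and the isoenzymes of the families described. Libraries and genes mentioned for their spread were chosen after their values were seen. The members and lists were chosen with earlier results of these data known. Data were simulated for 15264 genes, with 50 genes changed at each size. The DDC against Control test recovered 48% at 1.25-fold, 86% at 1.5-fold, 100% at 2-fold and 96% at 4-fold, with 8 unchanged genes called. For R15 against Control it recovered 46%, 84%, 92% and 98%. The changed genes were drawn only from those well above the filter, and far fewer were changed than were called in the real data. These shares therefore do not carry over to members near the filter, such as Hk2 and Slc16a3. Alternatives were other pseudocounts, filters and scalings, voom on the recovered reads, libraries left out and a replicate block.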

Additional observations from a re-analysis of the deposited data

Results flagged for a closer look

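Of the 82 sets of 4 libraries (the level of a member, or the share of an isoenzyme, in Control or DDC) that were checked for a library far from the other 3, 4 were found, and chance alone gives such a library in about 1 in 20 groups. In 3 of them the library was DDC 4, the highest of its group for Aldoa at 219.6 FPKM (the others 203.5 to 204.9), for Pfkfb3 at 14.67 FPKM (12.49 to 12.67) and for Pfkfb4 at 8.087 FPKM (6.28 to 6.515). DDC 4 also had the highest summed macrophage markers, 2445 FPKM, and their part in these values was not tested. The last was P4ha2 in Control 3, the lowest of its group at 5.539 FPKM against 7.188 to 7.44. Control 3 was the library with the highest gastric mucous marker sum, 11250 FPKM, whose part was not tested either.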

How the results depend on the processing

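Over all alternatives, 2361 of 2562 values of single members kept their side of the threshold, 171 no longer passed, 30 newly passed and 0 values that had passed reversed. Of the 2361, 82 changed sign, none of which passed either way, the widest swings being Car9 in DDC against Control without Control 1 and Control 3 together (-0.36 to 0.93) and Egln3 without the 5 libraries with pancreatic transcripts (0.47 to -0.46). A required change of at least 1 log2 unit left 1 member higher and 2 lower in DDC against Control, 1 higher and 1 lower in R15 against DDC, and 0 lower in R15 against Control. Counts of the fit without the 5 libraries with pancreatic transcripts, which left 1 Control library, are not given by themselves. The 5 members lower in R15 against Control became 3 with no filter, 1 with only those 2 groups in the fit, 1 without Control 1 and Control 3 together and 1 to 6 with 1 library left out. With the replicate block that count was 1, and the other counts stayed within 1.5 times of their values (higher and lower in both other comparisons). The labels do not tie same-numbered libraries together: their deviations correlated between -0.28 and 0.30, and not every library correlated best with its own number, so the paired fit is no firmer than the other. The ranges with 1 library left out were 8 to 10 higher and 12 to 13 lower for DDC against Control, 8 to 10 and 9 to 14 for R15 against DDC, and 0 to 0 higher for R15 against Control. The filter at 5 FPKM left 29 members. No share of an isoenzyme passed after adjustment, which groups of 4, 4 and 3 could not reach over 18 tests. Depth was ample for most members; Slc16a3, Hk2, Ankrd37 and Pdk4 were near the filter, where the added 1 FPKM shrinks changes.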
